A study of Mus musculus with 4 samples.

Results

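The genes described here encode hnRNP and SR splicing factors, in motor neurons of mice transgenic for wild-type SOD1-YFP or G85R SOD1-YFP. They were chosen by symbol, as every gene whose name in the files begins with Hnrnp, Hnrp, Sfrs or Srsf, the last 2 followed by a digit. The rule took 37 of the 27189 rows, 20 for hnRNPs and 17 for SR and SR-related proteins, which carry 36 symbols because Hnrpll has 2 rows. The rule used no expression value, although it was set with earlier results of these data known.

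The transgene is a genomic fragment with the human SOD1 gene, joined at its end to the coding sequence of the yellow fluorescent protein eYFP, and it differs between the strains by the G85R change, a substitution that causes inherited ALS. The 2 wild-type libraries came from strain 592 and the 2 G85R libraries from strain 737, both on a C57BL/6J x SJL/J background and sacrificed at 3 months of age, before G85R mice show paralysis. Each library held poly(A) RNA of motor neuron cell bodies from 1 mouse, taken by laser microdissection from the ventral horn of the spinal cord. The G85R strain carries many more transgene copies than the wild-type strain, so that copy number, insertion and mutation cannot be told apart, and no nontransgenic mice were among the libraries. Cell bodies with large fluorescent aggregates were left out at the capture by the authors. In bulk RNA of this kind, fewer cells of a type and less RNA per cell cannot be told apart.

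Heterogeneous nuclear ribonucleoproteins (hnRNPs) coat nascent transcripts and often keep exons from being used, whereas SR proteins, named for a domain rich in serine and arginine, bind enhancers within exons and recruit the splicing machinery. Many of them oppose each other at the same exons, and many limit their own level by splicing their own transcripts into forms that are degraded. These families are of interest in ALS because RNA binding proteins of this class, hnRNP A1 and hnRNP A2/B1 among them, are mutated in other inherited forms of motor neuron disease.

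Expression values are RPKM, reads normalised to transcript length and to the mapped reads of the library, so that levels of different genes can be compared per length. An RPKM above 0 was listed for 17116 to 17398 rows per library, and the RPKM of 1 read had a median of 0.0195 to 0.0226. The motor neuron markers Chat, Slc18a3, Slc5a7, Isl1, Mnx1 and Prph were present in every library, summing to 1191 to 1642. The summed RPKM of 6 astrocyte markers was 33.8 and 37.1 in the wild-type pair (replicate 1 first, as throughout) compared with 124 and 49.0 in the G85R pair, so that G85R replicate 1 stood apart. Microglial markers, 7 in number, gave 9.94 and 9.64 in wild-type compared with 24.5 and 10.6 in G85R. Red blood cell markers summed to 2.31 and 2.72 in wild-type, against 13.4 and 12.7 in G85R, and both tested rows, of Hbb-b1, were called higher. Endothelial markers summed to 8.40 and 9.27 in wild-type, against 7.44 and 6.97 in G85R. Interneuron markers summed to 189 and 193 in wild-type compared with 220 and 203 in G85R, with 6 of 6 higher. In both sets the sums of the genotypes did not overlap. Oligodendrocyte markers summed to 860 and 807 in wild-type, against 1027 and 786 in G85R. No tested row of these 3 sets was called. The part of these cells in the levels of splicing factors was not tested.

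The hnRNP genes summed to 501 and 416 RPKM for wild-type, with 485 and 412 RPKM for G85R. The SR genes summed to 272 and 274 for wild-type, with 271 and 258 for G85R. Of the total RPKM of a library, hnRNPs made up 0.105% to 0.129% and SR genes 0.0656% to 0.0705%. The hnRNP sums of the genotypes overlapped, with replicate 1 high in each. Both SR sums of G85R were below those of wild-type, although the G85R sums lay farther from each other than the means of the genotypes did.

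A minimum mean RPKM of 1 left 35 of the 37 rows, which were tested with limma on log2(RPKM + 0.1), in 1 fit with all 11530 rows that passed this minimum. None of the 35 was called at an adjusted p under 0.05, beside 74 calls over all tested rows (0.642%), 31 higher in G85R (0.269%) and 43 lower (0.373%). Adjusted p over the members ran from 0.424 to 0.998. At an unadjusted p under 0.05 there was 1 member, Hnrph1, beside 1272 of all tested rows (11.0%). The log-linear likelihood ratio test named by the study was run on rounded RPKM with 1 read added, as if these were counts. It called 62 of all 27189 rows (0.228%), with none of the 37 among them and none at an unadjusted p under 0.05. At the RPKM of these genes it could hardly call small changes, whatever the number of reads behind them, so its lack of calls decides little.

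Fold changes of the members were small. The median log2 fold change was -0.02 over the 35 members and -0.02 over all tested rows. It was 0.00 over the 18 tested hnRNPs, of which 9 were higher in G85R, and -0.03 over the 17 SR genes, of which 5 were higher. Together 14 of 35 were higher, beside 45.3% of all tested rows. After rescaling by the median ratio or quantile normalization the number was 17 of 35. The members lay between -0.31 and 0.32, and 22 of 35 were within 0.1 of 0 on the log2 scale.

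The 95% interval of the fold change, from the spread that limma shares between genes, lay within 1.5-fold in both directions for 27 of the 35 members and within 2-fold for 34. The exception was Hnrpf, whose values rest on an estimated 9 to 30 reads per library.

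**Figure D1:**
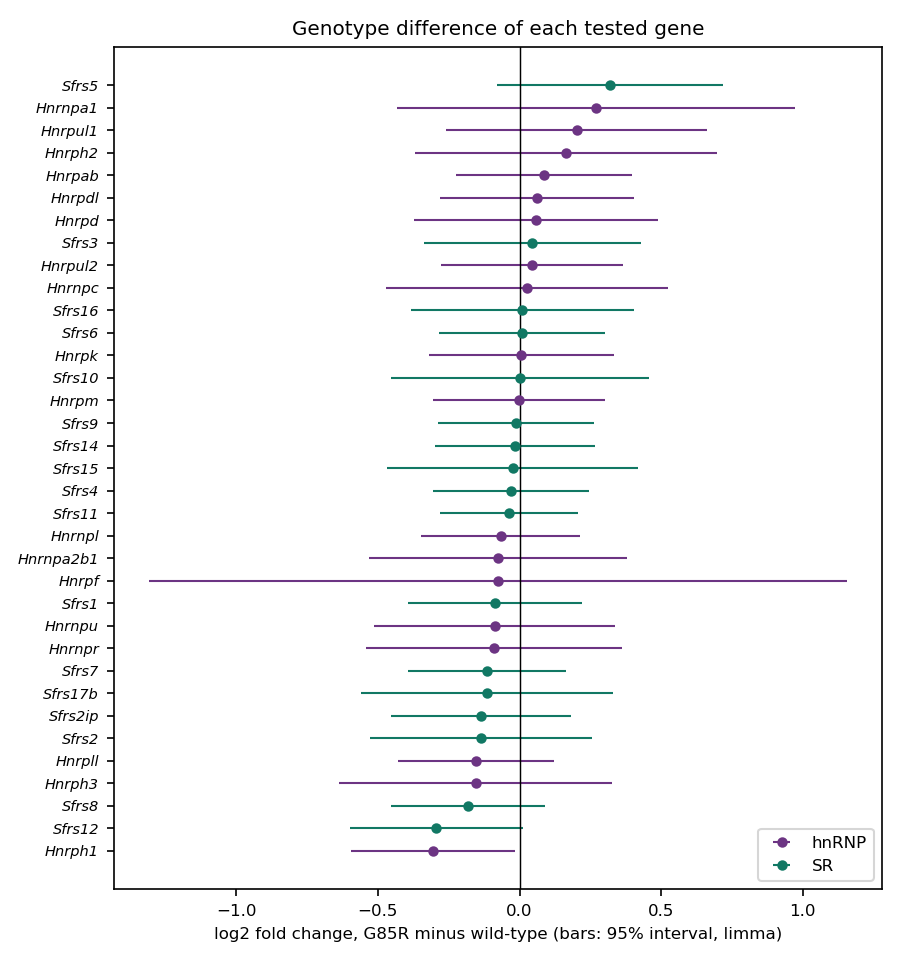
Log2 fold change of RPKM + 0.1 in G85R relative to wild-type for each of the 35 tested genes, with hnRNPs and SR genes in different colors and bars for the 95% interval from limma. The points run from -0.31 for Hnrph1 to 0.32 for Sfrs5, and the interval of every gene but Hnrph1 includes 0.

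The G85R pair lay wholly outside the wild-type pair in 4 of the 35 members. The same held for 41.2% of all tested rows. These 4 were Hnrph1, Hnrpll, Sfrs8 and Sfrs12, and all were lower in G85R. Of all tested rows, 23.9% were lower without overlap. For 31 of 35 members the difference between the genotypes was smaller than the larger of the 2 differences between replicates, on the log2 scale. A difference between means of 2 libraries tends to be the smaller of these in any gene. The share over all tested rows was not counted, so the number is no trait of these genes.

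Hnrph1 (Hnrnph1 in RefSeq) encodes hnRNP H, which binds runs of G in RNA and regulates exon use on either side of them. In NCBIM37, known at UCSC as mm9, it spans bases 50190492 to 50200030 of chromosome 11, plus strand. Its RPKM values were 48.5 and 42.5 in wild-type, against 39.2 and 34.4 in G85R, from an estimated 646 to 940 reads. Both G85R values were below both wild-type values, although the higher G85R value was nearer to the lower wild-type value than the replicates were to each other. Mean RPKM of wild-type was 45.5 ± 4.22 and that of G85R 36.8 ± 3.45 (SD, n = 2 per genotype). Hnrph1 had the largest decrease of all members, a log2 fold change of -0.31 (SE 0.12, 95% interval -0.59 to -0.02), with an adjusted p of 0.424 from limma and an unadjusted p of 0.0404. It was not called after adjustment.

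The genotypes overlapped in the other genes of the H and F group. Hnrph2, on the X chromosome, encodes a protein close to that of Hnrph1 and had 4.43 and 3.00 in wild-type compared with 4.64 and 3.61 in G85R. Hnrph3 had 14.3 and 11.1 in wild-type, against 13.6 and 9.40 in G85R. In both genes replicate 1 was above replicate 2 in each genotype. Per length, Hnrph1 was thus expressed above Hnrph3 and Hnrph2 in every library.

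Coding sequences of Hnrph1 and Hnrph2 are shown because the genes are close paralogs. Counted from the first coding base, positions 123 to 152, the first 30 bases with a single difference, read as follows in GENCODE transcripts on NCBIM37, with the differing base in capitals.
Hnrph1: aggtAttcgtttcatctacaccagagaagg
Hnrph2: aggtGttcgtttcatctacaccagagaagg
Over the shared length of their coding sequences, compared without gaps, 83.6% of bases were identical. Of the 75-base windows of Hnrph1 mRNAs in GENCODE, 75 being the length of the reads, 6.42% occur exactly outside the gene. For Hnrph2 the share was 24.5%. None of these places lies in the other gene. Only contiguous genomic sequence was searched, so that a window across an exon junction shared by both mRNAs could be missed.

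Hnrpab had the highest mean RPKM, 55.2, with 58.9 and 48.4 in wild-type compared with 60.3 and 53.3 in G85R. Hnrnpu, whose product binds RNA and the nuclear scaffold, had 59.5 and 48.2 in wild-type, against 59.4 and 42.7 in G85R. Its replicates 1 were nearly equal between genotypes. The log2 fold change of Hnrnpu was -0.09 (SE 0.18, limma adjusted p = 0.929).

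Hnrnpa2b1 encodes hnRNP A2/B1, which also takes part in sorting RNA to neurites. It had 58.2 and 41.2 in wild-type compared with 52.7 and 40.9 in G85R, a log2 fold change of -0.08 (SE 0.19, limma adjusted p = 0.942). Hnrnpl, which binds CA repeats, had 52.3 and 45.8 in wild-type, against 49.6 and 44.1 in G85R. Values of both sorted by replicate number rather than by genotype. The levels of Hnrpab, Hnrnpu, Hnrnpa2b1 and Hnrnpl are at or above the 85.6th percentile of all tested rows, and their order is not fixed, since the libraries of one overlap those of the next.

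Hnrpul2 had 39.8 and 33.5 in wild-type compared with 41.0 and 34.5 in G85R, and it is related to Hnrnpu. Hnrpk, whose product binds runs of C through KH domains, had 36.6 and 29.3 in wild-type, against 31.3 and 34.5 in G85R. Hnrpm had 25.9 and 29.9 in wild-type compared with 29.9 and 25.9 in G85R, which gave a log2 fold change of -0.0013 that became positive after rescaling and quantile normalization. In each of these 3 genes the genotypes overlapped, with adjusted p of 0.953 to 0.997 from limma.

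Other hnRNPs were lower. Hnrnpc, a core protein of the hnRNP particle, ranged from 19.6 to 29.4, and Hnrpd and Hnrpdl, neighbors on chromosome 5 whose proteins bind AU-rich elements, ranged from 12.7 to 18.0 and from 23.4 to 30.5. In Hnrnpc the lowest and the highest values were both from G85R. Hnrpll, a relative of hnRNP L that is best known from activated lymphocytes, had 10.4 and 10.0 in wild-type, against 8.97 and 9.36 in G85R, without overlap. Its log2 fold change was -0.15 (SE 0.12, limma adjusted p = 0.710). Its other row was listed at 0 in every library and was not tested.

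Hnrpul1 had RPKM values of 8.64 and 8.39 in wild-type, against 12.0 and 8.00 in G85R. Only G85R replicate 1 was high, while G85R replicate 2 was the lowest of the 4. Its log2 fold change was 0.20 (SE 0.19, limma adjusted p = 0.798), and -0.09 without G85R replicate 1, the library in which astrocyte and microglial markers were highest. The part of these cells in the value of Hnrpul1 was not tested. Hnrnpr, related to Syncrip and known in motor neurons for binding to Smn, ranged from 2.52 to 3.31.

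**Figure D2:**
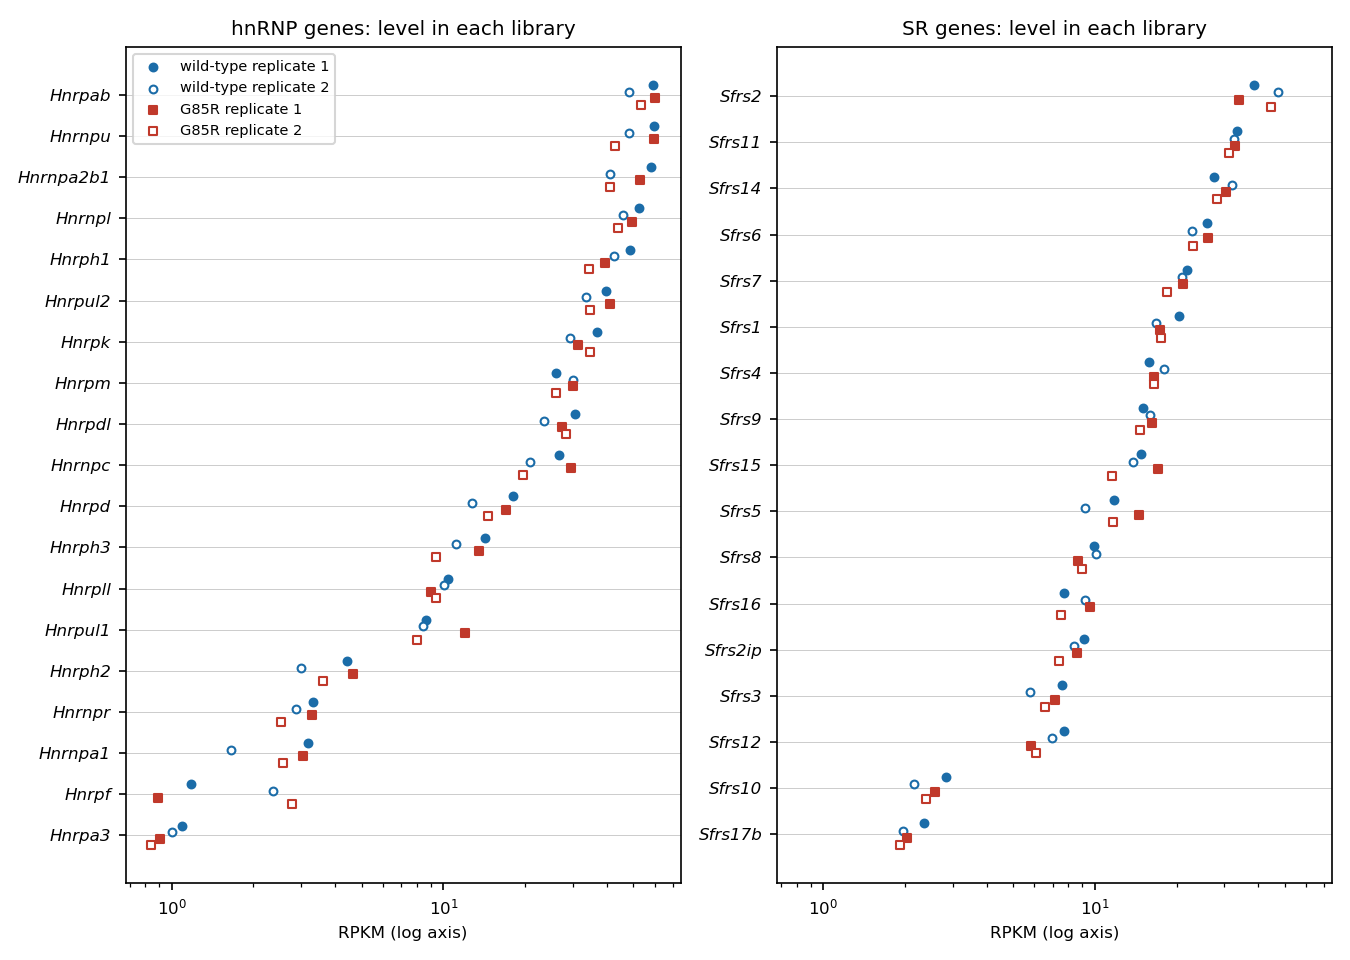
RPKM on a log axis of each hnRNP gene (left) and SR gene (right) in the 4 libraries, with circles for wild-type, squares for G85R, filled symbols for replicate 1 and open symbols for replicate 2. For most hnRNP genes filled symbols lie to the right of open ones in both genotypes, as for Hnrnpu with 59.5 and 59.4 in replicates 1 and 48.2 and 42.7 in replicates 2. The row of Hnrpll at 0 is not drawn.

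Among SR genes, Sfrs2 (Srsf2, also known as SC35, a mark of nuclear speckles) was highest, with 38.4 and 47.3 in wild-type compared with 33.8 and 44.5 in G85R. Unlike most members, Sfrs2 was lower in replicate 1 of both genotypes. Its log2 fold change was -0.14 (SE 0.17, limma adjusted p = 0.854). Sfrs1 (Srsf1), also known as SF2/ASF, had 20.5 and 16.8 in wild-type, against 17.4 and 17.6 in G85R.

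Sfrs6 had 25.9 and 22.9 in wild-type compared with 26.1 and 22.9 in G85R, a difference between genotypes of 0.55% of the wild-type mean. Sfrs7, which also takes part in mRNA export, had 21.9 and 21.0 in wild-type, against 21.2 and 18.5 in G85R. Sfrs4 had 15.8 and 18.0 in wild-type compared with 16.5 and 16.5 in G85R. Sfrs9 had 15.04 and 16.01 in wild-type, against 16.2 and 14.7 in G85R. In all 4 genes the genotypes overlapped, with adjusted p of 0.815 to 0.990 from limma. For Sfrs9 the direction of the log2 fold change, -0.01, turned after rescaling and quantile normalization.

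Sfrs5 (Srsf5) had the largest increase of all members. It lies on the plus strand of chromosome 12 from 82046491 to 82051494. Its RPKM values were 11.8 and 9.18 in wild-type compared with 14.5 and 11.7 in G85R, so that G85R replicate 2 fell just below wild-type replicate 1. Mean RPKM of wild-type was 10.5 ± 1.84 and that of G85R 13.1 ± 2.01 (SD, n = 2 per genotype), and the log2 fold change was 0.32 (SE 0.17, 95% interval -0.08 to 0.72, limma adjusted p = 0.559). The log2 fold change was 0.50 without wild-type replicate 1, 0.14 without wild-type replicate 2, 0.16 without G85R replicate 1 and 0.48 without G85R replicate 2. Of the 75-base windows of its mRNAs in GENCODE, 29.7% occur exactly at 1 other place, in an annotated pseudogene.

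Sfrs3 (Srsf3), a small SR protein, ranged from 5.79 to 7.58, and its lowest and highest values were both from wild-type. Sfrs10, a former symbol of Tra2b that RefSeq also lists for Srsf2, ranged from 2.17 to 2.83.

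SR-related proteins carry such a domain but are not of the classical family. Sfrs12 (Srek1), which regulates splice sites through other SR proteins, spans bases 104531695 to 104564539 of chromosome 13, minus strand. It had RPKM values of 7.68 and 6.97 in wild-type, against 5.81 and 6.08 in G85R, without overlap. Mean RPKM of wild-type was 7.32 ± 0.500 and that of G85R 5.95 ± 0.191 (SD, n = 2 per genotype), and the log2 fold change was -0.29 (SE 0.13, 95% interval -0.60 to 0.01, limma adjusted p = 0.471). Sfrs8 (Sfswap), a homolog of the fly suppressor of white apricot, had 9.94 and 10.1 in wild-type compared with 8.70 and 8.94 in G85R. The replicates of Sfrs8 lay closer together than the genotypes, and its log2 fold change was -0.18 (SE 0.12, limma adjusted p = 0.653).

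Sfrs11 had 33.4 and 32.5 in wild-type, against 32.9 and 31.3 in G85R, and Sfrs14 (Sugp2) had 27.6 and 31.9 in wild-type compared with 30.5 and 28.2 in G85R. Sfrs11 had the lowest standard error of all members, 0.10, and a log2 fold change of -0.04 with a 95% interval of -0.28 to 0.20. The log2 fold change of Sfrs14, -0.02, became positive after rescaling by the median ratio. The others ranged from 11.6 to 17.1 for Sfrs15 (Scaf4), from 7.48 to 9.61 for Sfrs16 (Clasrp), from 7.38 to 9.14 for Sfrs2ip (Scaf11) and from 1.92 to 2.35 for the X-linked Sfrs17b (Akap17b). G85R replicate 1 was the highest library for Sfrs15 and Sfrs16.

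Libraries of the same replicate number resembled each other in the levels of these genes. Replicate 1 was above replicate 2 in both genotypes for 22 of the 35 tested members, 13 of 18 hnRNPs and 9 of 17 SR genes. Over all tested rows the share was 31.5%, and over the lists of other splicing genes described further on it was 44.9% to 63.0%. Replicate 2 was above replicate 1 in both genotypes for 3 members, Sfrs2, Sfrs8 and Hnrpf, beside 28.0% of all tested rows. The median log2 difference between replicates 1 and 2 of the hnRNPs was 0.29 in wild-type and 0.22 in G85R. For the SR genes it was 0.10 and 0.11, and for all tested rows 0.00 and 0.02. The median size of the genotype difference over the members was 0.08, compared with 0.32 for the larger of the replicate differences. These are unlike measures, a difference of means and the larger of 2 differences between single libraries, and were not computed over all tested rows.

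The paper plotted ratios of G85R to wild-type for pairs of replicates with the same number, without saying what joins a pair. The main fit treated the libraries as unpaired, and no test was made of the replicate pattern. Summed motor neuron markers moved the other way, summing to 1370 and 1642 in wild-type, against 1191 and 1452 in G85R. For 5 of these 6 markers replicate 2 was above replicate 1 in both genotypes. Summed markers of oligodendrocytes were 860 and 807 in wild-type, against 1027 and 786 in G85R, higher in replicate 1 of each. Summed astrocyte markers were higher in replicate 1 of G85R only, and 4 of these 6 markers were higher in replicate 1 of both. Depth was lower in replicates 1, where the median RPKM of 1 read was 0.0207 for wild-type and 0.0226 for G85R, compared with 0.0195 and 0.0213 in replicates 2. The part of cell makeup and depth in the levels of hnRNPs was not tested.

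**Figure D3:**
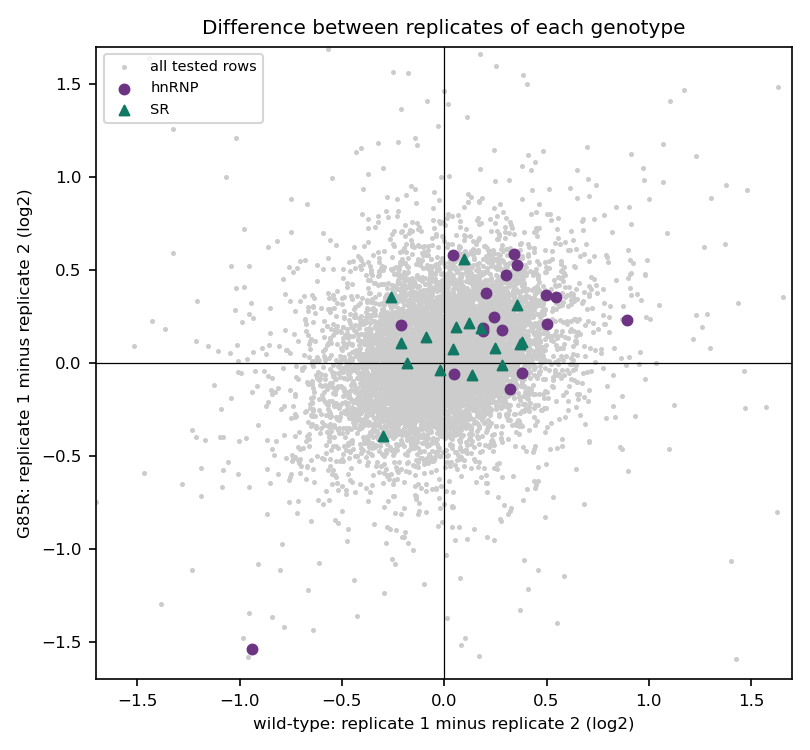
Difference between replicates 1 and 2 on the log2 scale of RPKM + 0.1, in wild-type (horizontal) and G85R (vertical), for hnRNP genes, SR genes and all tested rows in gray; 63 of the 11530 rows lie beyond the axes. The upper right part, where replicate 1 was higher in both genotypes, holds 22 of the 35 members.

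Among hnRNPs, 3 genes had the lowest mean RPKM, apart from the row of Hnrpll at 0. Hnrnpa1 had RPKM values of 3.17 and 1.66 in wild-type compared with 3.04 and 2.57 in G85R, Hnrpf had 1.18 and 2.36 in wild-type, against 0.889 and 2.77 in G85R, and Hnrpa3 had 1.09 and 1.00 in wild-type compared with 0.905 and 0.838 in G85R. The mean of Hnrpa3, 0.959, was just under the minimum of 1, so that it was not tested, although both of its G85R values were below both wild-type values. The log2 fold change of Hnrnpa1 was 0.27 (SE 0.30, limma adjusted p = 0.834), and it was 0.72 without wild-type replicate 1 and -0.18 without wild-type replicate 2. Hnrnpa1 shuttles between nucleus and cytoplasm and is commonly among the most abundant hnRNPs.

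The values count uniquely mapped reads, and these 3 genes have many copies in the mouse genome. All 75-base windows of their mRNAs in GENCODE were looked up in NCBIM37. The RPKM were counted on UCSC gene clusters, whose sequence can differ in length. In wild-type replicate 1 the RPKM of 1 read, which falls as the counted length grows, was 0.0882 for Hnrpf and 0.0146 for Hnrnpa1. The windows looked up numbered 2864 for Hnrpf and 1194 for Hnrnpa1. The shares may thus not describe the sequence that was counted. Exact matches outside the gene were found for 75.9% of the windows of Hnrnpa1, at 14 places of which 9 are annotated as pseudogenes. It was 79.8% for Hnrpa3, at 46 places with 25 annotated pseudogenes, and 62.7% for Hnrpf, at 9 places with 5. Of the 35 symbols that were looked up, 19 had no such window, among them Hnrnpu and Hnrpab, and only these 3 exceeded 50%. Matches with mismatches were not counted, so that the shares are lower limits of what a read with an error could match.

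These stretches of coding sequence are shown because each lies in a window with many exact copies. It is the window with the most copies among coding windows within a single exon, in the transcript with the longest coding sequence. They are given 5′ to 3′ in the direction of the gene, on the plus strand of NCBIM37, all in lower case since the whole stretch is shared.
Hnrnpa1, coding positions 340 to 369, chr15:103072394-103072423: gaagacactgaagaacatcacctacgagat
Hnrpa3, coding positions 144 to 173, chr2:75499594-75499623: tgatagcttaagagaacattttgagaaatg
Hnrpf, coding positions 735 to 764, chr6:117874509-117874538: atacagtggcctcagtgatggctatggctt
The 75-base window around the stretch of Hnrnpa1 occurs at 7 other positions in the genome, that of Hnrpa3 at 18 and that of Hnrpf at 5.

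The 3 genes with over 50% of such windows had the lowest mean RPKM of the 19 hnRNP symbols. They were not set apart in every library. In G85R replicate 2, Hnrnpr at 2.52 was below Hnrnpa1 at 2.57 and Hnrpf at 2.77. The lowest of the other 16 was Hnrnpr, with a mean RPKM of 3.00. Over the 19 genes, Spearman's rho between the share of windows found elsewhere and the mean RPKM was -0.58, given as a description since the genes were measured in the same libraries. Hnrpk departed from the pattern, with 38.0% of windows found elsewhere and a mean of 32.9. Of tested hnRNPs without such windows, Hnrpll and Hnrph3 had the lowest means, 9.68 and 12.1. These levels are not low, at the 49.0th and 54.5th percentiles of all tested rows. Among SR genes, which are not in this rho, Sfrs17b had no such window and a mean of 2.07. The part of mapping in these levels was not tested, and levels of Hnrnpa1, Hnrpa3 and Hnrpf relative to other genes are uncertain, while the same mapping applied to both genotypes.

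**Figure D4:**
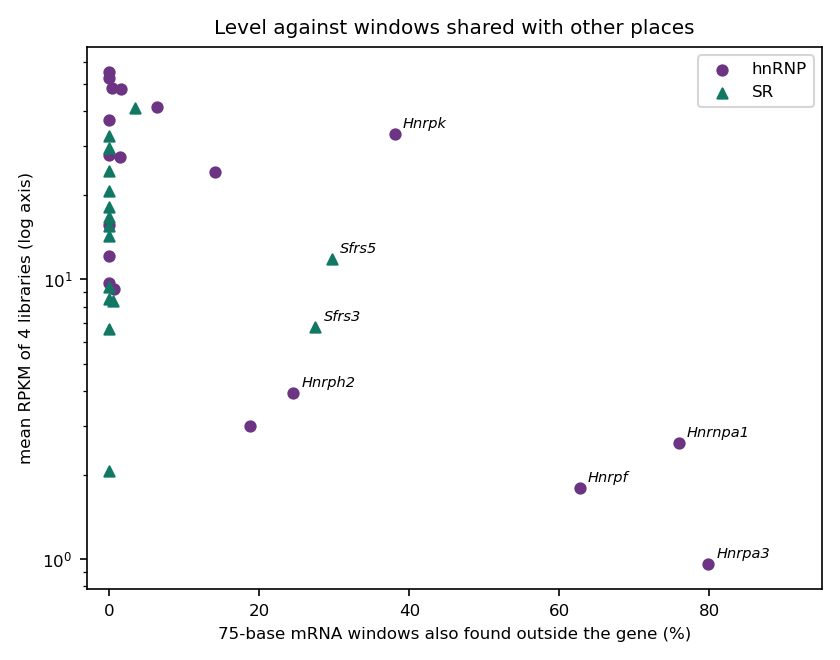
Mean RPKM of the 4 libraries (log axis) against the percentage of 75-base windows of GENCODE mRNAs found exactly outside the gene. Points are hnRNP and SR genes. Hnrnpa1, Hnrpf and Hnrpa3 lie at the right, between 62.7% and 79.8%, with mean RPKM of 2.61, 1.80 and 0.959.

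Other genes of splicing were described by lists, beside the same background of 0.642% calls. None of the 49 tested genes of the core spliceosome, 20 partners of SR proteins, 24 other hnRNP class proteins and 27 tissue-restricted regulators was called. At an unadjusted p under 0.05 the numbers were 2, 1, 3 and 1, beside 11.0% of all tested rows. Median log2 fold changes were -0.05, 0.05, 0.06 and -0.09 in the same order. In that order, 19 of 49, 14 of 20, 18 of 24 and 12 of 27 were higher in G85R, beside 45.3% of all tested rows, and differences between the lists were not tested.

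The lowest p among these lists belonged to Cirbp, a cold-inducible RNA binding protein, at RPKM 18.7 and 21.6 in wild-type, against 27.2 and 31.6 in G85R, without overlap. Its log2 fold change was 0.54 (SE 0.13, limma adjusted p = 0.170). Rbm3, its cold-inducible relative, had 2.35 and 1.89 in wild-type compared with 3.33 and 2.71 in G85R (log2 fold change 0.49, limma adjusted p = 0.423). Fubp1, which binds single-stranded DNA and RNA, had 20.5 and 16.03 in wild-type, against 14.9 and 12.6 in G85R, with a log2 fold change of -0.40. The genotypes did not overlap in these 3 genes, which were taken for their low p, and in 4 of the 24 genes of the list, beside 41.2% of all tested rows.

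In the core spliceosome, the helicase gene Ddx46 had 10.0 and 10.4 in wild-type compared with 7.55 and 7.46 in G85R, a log2 fold change of -0.44 (SE 0.12, limma adjusted p = 0.218). Lsm2, of the ring bound to U6 RNA, had 10.4 and 10.5 in wild-type, against 13.8 and 12.1 in G85R, and Snrpa1, of the U2 particle, had 37.6 and 32.1 in wild-type compared with 30.2 and 27.9 in G85R. Their adjusted p from limma were 0.441 and 0.503. Snrpn, named after its values were seen, was listed at 0 in G85R replicate 1 and at 16.6 in G85R replicate 2, compared with 17.3 and 24.4 in wild-type.

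Among partners of SR proteins, Rnps1, a part of the exon junction complex, had 3.996 and 5.08 in wild-type, against 8.01 and 6.24 in G85R (log2 fold change 0.64, limma adjusted p = 0.258). Srpk1, a kinase that phosphorylates SR proteins, had 15.2 and 16.3 in wild-type compared with 13.9 and 12.1 in G85R, and Luc7l had 18.3 and 17.0 in wild-type, against 13.9 and 16.6 in G85R. Among tissue-restricted regulators, the neuronal factor Nova2 had 8.01 and 9.35 in wild-type compared with 6.47 and 6.62 in G85R (log2 fold change -0.40, limma adjusted p = 0.340). Rbm5 had 25.7 and 25.5 in wild-type, against 23.0 and 20.8 in G85R, and Rbm9 (Rbfox2) had 16.6 in both wild-type libraries and 18.9 and 17.9 in G85R. The genotypes did not overlap in these 6 genes, which were taken for their low p. Over the whole lists they did not overlap in 6 of 20 partners and 6 of 27 tissue-restricted regulators, beside 41.2% of all tested rows.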

How the data were processed

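Reads of 75 bases were mapped by the authors with Bowtie 0.12.3 to mm9 and to splice junctions of UCSC Known Genes, and quantified with Cufflinks per UCSC gene cluster. The values they deposited are RPKM, without counts of reads, and the same RPKM with 1 read added to every gene. Estimated reads are the RPKM divided by the difference between both values, and are not exact counts. Libraries were grouped by genotype and compared by lmFit and eBayes with trend (limma 3.58.1, R 4.3.3) on log2(RPKM + 0.1), two-sided, with Benjamini-Hochberg adjustment. A fold change on this scale understates changes of low genes. The fit was tested on simulated data. An exact permutation test could give a single gene no p below 0.333 at this group size. Members were placed on GENCODE vM1 by Entrez identifier (25 rows) or RefSeq synonym (11 rows), and Sfrs10 was not placed. Summaries used Python 3.11.15 with pandas 2.3.3 and scipy 1.17.1, and figures used matplotlib 3.10.9.

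The members and lists were chosen with earlier results of these data known. Values in each library are given for members with an unadjusted p under 0.05, the 8 highest hnRNPs and the 8 highest SR genes, the 3 largest changes in each direction, and symbols with more than 1 row, and for the 3 genes with the lowest p of each list. Other members are given by range, and those given per library (Hnrph2, Hnrph3, Hnrpf and Hnrpa3) were chosen after their values were seen. Alternatives were pseudocounts of 1 and 0.01, minimum mean RPKM of 0.1, 5 or none, rescaling, quantile normalization, a replicate block, other variance models, the RPKM with 1 read added, the log-linear test, an adjusted p under 0.1, and leaving out each library.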

Additional observations from a re-analysis of the deposited data

How the results depend on the processing

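No member was called at an adjusted p under 0.05 in the alternative fits with limma that kept every library. The limit of 0.1 was applied to the main fit only, where it called no member either. The lowest adjusted p from limma was 0.0829, for Hnrph1 with a replicate block. None was called by the log-linear test, which on rounded RPKM could hardly call changes of this size. The number of all genes called, 74, was 527 with a replicate block, 17 with a minimum mean RPKM of 5, 112 without a minimum, 39 after quantile normalization, 49 without the trend, 142 at an adjusted p under 0.1, and 78 to 188 without 1 library (188 without G85R replicate 2). Members at an unadjusted p under 0.05, 1 in the report, were 3 without a minimum (Sfrs8, Sfrs12 and Hnrpll), 3 with the block (Hnrph1, Sfrs5 and Sfrs12), 0 after rescaling by the median ratio, 0 after quantile normalization, 0 without the trend, 0 in the log-linear test, and 1 to 3 without 1 library. With 1 library left out, the lone library of a genotype is assumed to vary like the others. Then 6 to 22 of 35 members were higher in G85R (6 without G85R replicate 1, 9 without wild-type replicate 2, 21 without wild-type replicate 1, 22 without G85R replicate 2) and 16 to 22 did not overlap, with fewer libraries to separate. For these fits neither share was counted over all tested rows. Whether the members differ from other genes in these numbers is thus not known. The paper plotted ratios by pairs of the same replicate number but does not say what joins a pair. The correlation of same-numbered deviations over tested rows was 0.22.

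The direction of the log2 fold change turned under at least 1 alternative in 15 of the 22 members followed, among them Hnrnpa1 and Hnrpul1, which had the largest increases after Sfrs5. After rescaling by the median ratio Hnrpm was 0.022, Sfrs9 0.012 and Sfrs14 0.0066, and after quantile normalization Hnrpm was 0.011 and Sfrs9 0.027. Without 1 library each, the ranges were -0.33 to 0.15 for Hnrnpu, -0.32 to 0.17 for Hnrnpa2b1, -0.16 to 0.028 for Hnrnpl, -0.056 to 0.23 for Hnrpab, -0.15 to 0.17 for Hnrpk, -0.11 to 0.10 for Hnrpm, -0.080 to 0.17 for Hnrpul2, -0.090 to 0.49 for Hnrpul1, -0.18 to 0.72 for Hnrnpa1, -0.23 to 0.056 for Sfrs1, -0.33 to 0.061 for Sfrs2, -0.12 to 0.060 for Sfrs4, -0.086 to 0.10 for Sfrs6, -0.082 to 0.060 for Sfrs9 and -0.12 to 0.089 for Sfrs14. Hnrph1, the tested row of Hnrpll, Sfrs5, Sfrs7, Sfrs8, Sfrs11 and Sfrs12 kept their direction in every alternative. Without 1 library each, Sfrs5 was at 0.14 to 0.50 and Hnrph1 at -0.40 to -0.21. In Hnrph1, Hnrpll, Sfrs8 and Sfrs12 the genotypes did not overlap, so that leaving out 1 library could not turn the direction. The replicate block, the other variance models and the other minimum RPKM leave a log2 fold change as it is. Much of this constancy was thus fixed in advance. The causes were not tested.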
